A study of Homo sapiens with 11 samples.

Results

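The MYC and MAX network is a group of transcription factors that share 1 dimerization partner, and its messenger RNAs were followed here in a human melanoma line, SK-MEL-103. The 10 genes were taken by name, with earlier results of these data known: the MYC proteins (MYC, MYCN, MYCL), their partner MAX, and 6 proteins that bind MAX in place of MYC (MXD1, MXD3, MXD4, MXI1, MNT, MGA). They were 10 of 61566 annotated genes, and 9 of them were among the 17039 genes that passed the filter on low reads, the exception being MYCN. Cells were cultured for 6 days with 0.25 µM etoposide (n = 4), a poison of topoisomerase II that leaves breaks in DNA, with 0.5 µM tozasertib (n = 3), an inhibitor of the Aurora kinases, or with the solvent DMSO (n = 4), with fresh medium and drug on day 3. The study used both drugs to drive the cells into senescence, a durable arrest of division, and calls the DMSO cells non-senescent. Replicate 3 of tozasertib was not analysed here. All samples come from 1 cell line, and no source used here states whether replicates came from different cultures. The p-values then cover the sample-to-sample spread alone, and that spread may be technical.

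MYC proteins do not bind DNA alone. They pair with MAX, and the pair binds the E-box, a short DNA motif with the core CACGTG, and raises transcription of genes for ribosome assembly, metabolism and cell division. The MXD proteins, MXI1 and MNT also pair with MAX on E-boxes, but bring the SIN3 corepressor and its histone deacetylases, and MGA pairs with MAX inside a Polycomb complex called PRC1.6. The balance of MYC against these antagonists is known as a switch between growth and arrest or differentiation, and MYC is a recurrent oncogene, in melanoma among other cancers.

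Libraries held between 27882689 and 56534763 reads assigned to transcripts. The arrest markers moved as a check of the labels. CDKN1A, the p21 inhibitor of cyclin-dependent kinases, was 3.07-fold higher with etoposide and 3.27-fold higher with tozasertib, while MKI67, a marker of dividing cells, fell by 2.22 and 2.91 on the log2 scale (all adjusted p at most 1.49e-07, edgeR). Of 8 melanocyte markers, SOX10, MITF, S100B and PMEL passed the filter and the pigment genes MLANA, TYR, TYRP1 and DCT did not. The summed level of this list was 329 to 348 CPM with etoposide, 392 to 399 CPM with tozasertib and 490 to 551 CPM in DMSO. Nearly all of this sum was SOX10, which fell with both drugs (-0.67 with etoposide, -0.44 with tozasertib), while MITF and S100B rose with both and PMEL with tozasertib. The fibroblast list (7 of 8 tested) summed to 156 to 172 CPM with etoposide, 137 to 142 CPM with tozasertib and 52.8 to 60.6 CPM in DMSO, and its PDGFRB and TWIST2 fell while LUM and COL1A1 rose. Keratinocyte and immune lists (3 of 6 tested each) summed to at most 68.8 CPM in any sample. Most of these sums came from KRT10 and CD68. With both drugs KRT17 rose, KRT14, CD68 and CD14 fell, and KRT10 did not pass, while LYZ fell with tozasertib only. The DMSO libraries also differed in how gene levels followed transcript length: the deviation of a gene from its group mean had a Spearman correlation with length, across genes, of -0.478 in DMSO replicate 1 and 0.402 in DMSO replicate 4, against -0.077 to 0.224 in the other 9 samples, and genes are not independent replicates. Results were therefore also computed on length-scaled counts and without these 2 samples.

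The 6 E-boxes below are printed because they are the motif through which the network acts. They lie in promoters of 2 network genes and of 4 known MYC target genes that fell. Of the latter, HSPD1, EIF4E and PRDX3 were chosen after their values were seen. WDR43 and MYBBP1A, MYC target genes that rose with both drugs, also held the motif in a promoter window. RefSeq promoters (build GRCh38.p14, 250 bases before to 50 after a start) were matched for 9 of the 10 network genes, and the letters CACGTG, which read the same on both strands, were present for MXD4 (chr4:2262060-2262359, minus strand) and MNT (chr17:2401011-2401310, minus strand). That is 2 of 9 genes, where 8.77% of the 27305 genes and 7.26% of the 35116 promoters of this table held the motif. Capitals mark the CACGTG core, with up to 20 bases on each side. The windows of LDHA and EIF4E held 2 cores each, of which the one nearer the start is printed, and a second window each of LDHA and HSPD1 held none. The printed core began 238 bases before the start of MXD4, 193 before that of MNT, 87 before that of LDHA (chr11:18394313-18394612, plus strand), 88 before that of HSPD1 (chr2:197500225-197500524, minus strand), 72 before that of EIF4E (chr4:98929084-98929383, minus strand) and 157 before that of PRDX3 (chr10:119178763-119179062, minus strand).
MXD4: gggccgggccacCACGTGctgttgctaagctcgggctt
MNT: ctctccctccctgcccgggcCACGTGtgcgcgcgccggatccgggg
LDHA: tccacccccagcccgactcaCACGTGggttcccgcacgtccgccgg
HSPD1: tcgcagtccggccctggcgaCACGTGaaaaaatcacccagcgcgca
EIF4E: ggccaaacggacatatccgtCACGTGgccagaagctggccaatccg
PRDX3: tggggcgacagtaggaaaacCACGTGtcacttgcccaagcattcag
No CACGTG was found in the promoter windows of MYCN, MYCL, MAX, MXD1, MXD3, MXI1 or MGA, which says only that these letters are not in those windows.

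Per length, in TPM, MAX had the highest mean of the network RNAs in all 3 conditions and MYCN and MYCL were hardly present. In DMSO replicate 2, MYC (71.75 TPM) was above MAX (68.48 TPM). With etoposide, MAX (99.8 ± 6.99 TPM) was followed by MXD4 (65.2 ± 1.18 TPM), MXI1 (36.5 ± 2.75 TPM), MYC (28.8 ± 4.10 TPM), MNT (19 ± 3.60 TPM), MXD3 (12.5 ± 5.20 TPM), MXD1 (8.32 ± 0.52 TPM) and MGA (5.36 ± 0.61 TPM). With tozasertib the order was the same: MAX 109.9 ± 2.78 TPM, MXD4 68.0 ± 2.06 TPM, MXI1 41.6 ± 2.67 TPM, MYC 38.3 ± 5.51 TPM, MNT 22.7 ± 1.58 TPM, MXD3 10.8 ± 0.90 TPM, MXD1 8.60 ± 0.72 TPM and MGA 5.76 ± 0.13 TPM (SD, n = 3), where MXI1 and MYC were closer than their spread. In DMSO, MAX at 75.3 ± 15.8 TPM was followed by MYC at 51.1 ± 17.3 TPM, MXD4 at 44.4 ± 1.62 TPM, MXD3 at 40.5 ± 8.37 TPM and MXI1 at 35.4 ± 5.52 TPM (SD, n = 4). Neighbours among MYC, MXD4, MXD3 and MXI1 in DMSO differed by less than their spread, and MNT (18.5 TPM), MXD1 (4.68 TPM) and MGA (4.13 TPM) lay below them. MYC ranked below MXD4 and MXI1 with either drug and above both in DMSO, and MXD3 ranked below MNT with either drug and above it in DMSO.

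**Figure D1:**
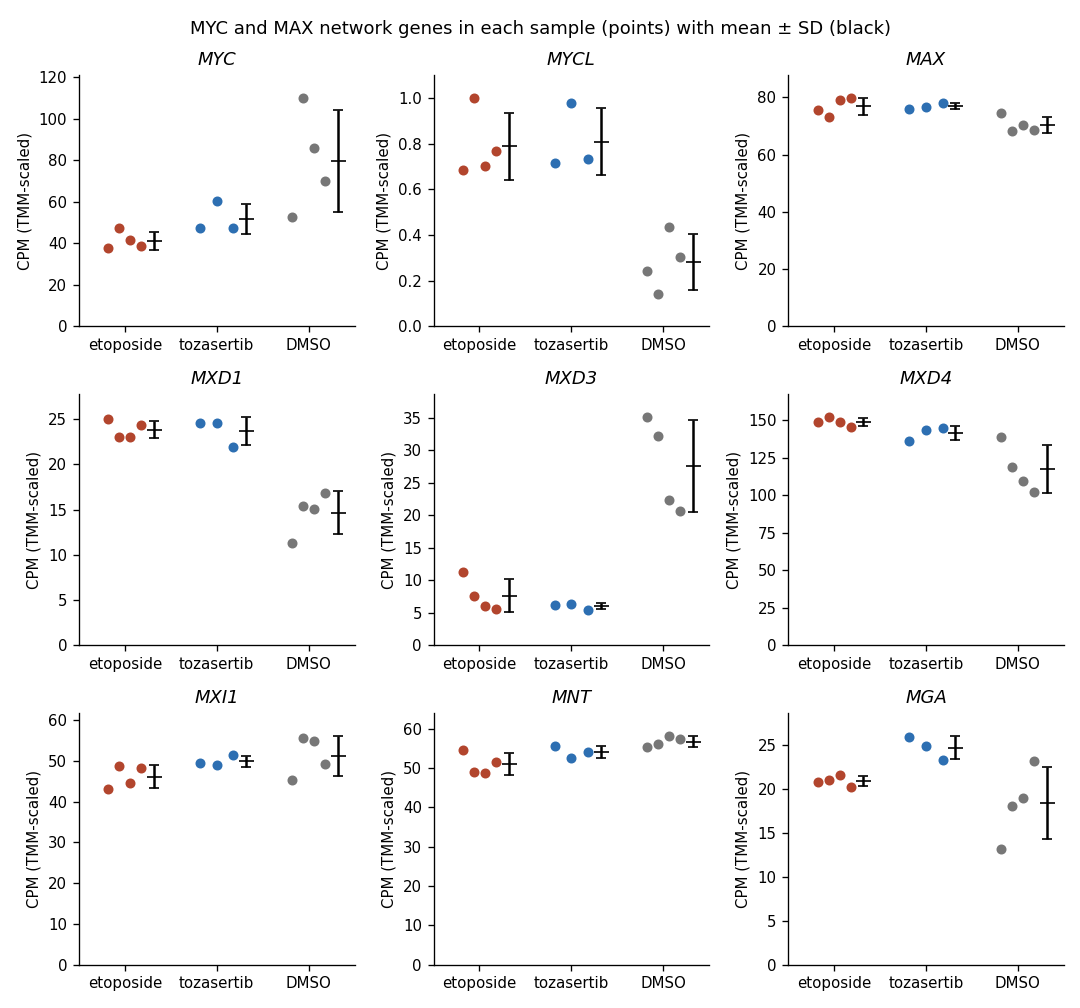
Level of the 9 tested network genes in each sample, in TMM-scaled CPM, with points for samples and black bars for the mean ± SD of each condition. MXD3 lies between 5.50 and 11.3 CPM in all 7 drug-treated samples and between 20.7 and 35.2 CPM in DMSO, and MXD1 lies above every DMSO sample in every drug-treated one.

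Changes were tested on gene counts with edgeR, whose adjusted p is given throughout, and each sample's level is in CPM, gene reads scaled to a common library size. In this bulk RNA, fewer cells that express a gene and less RNA per cell cannot be told apart. With etoposide, MYCL, MAX, MXD1 and MXD4 rose and MYC, MXD3 and MNT fell, 4 and 3 of the 9 tested network genes, where 27.7% of all tested genes rose and 30.7% fell. With tozasertib, MYCL, MXD1, MXD4 and MGA rose and MYC and MXD3 fell, 4 and 2 of 9, where 29.9% of all tested genes rose and 29.4% fell. Counts of 7 and 6 of 9 stand against this background, in which most genes changed. Every change called a rise or a fall had an adjusted p under 0.05. Both comparisons share the DMSO samples. MYC, MYCL, MXD1, MXD3 and MXD4 were called in both, in 1 direction each. The median log2 fold change of the 9 genes was 0.13 with either drug, and that of all tested genes was -0.01 with etoposide and 0.02 with tozasertib.

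**Figure D2:**
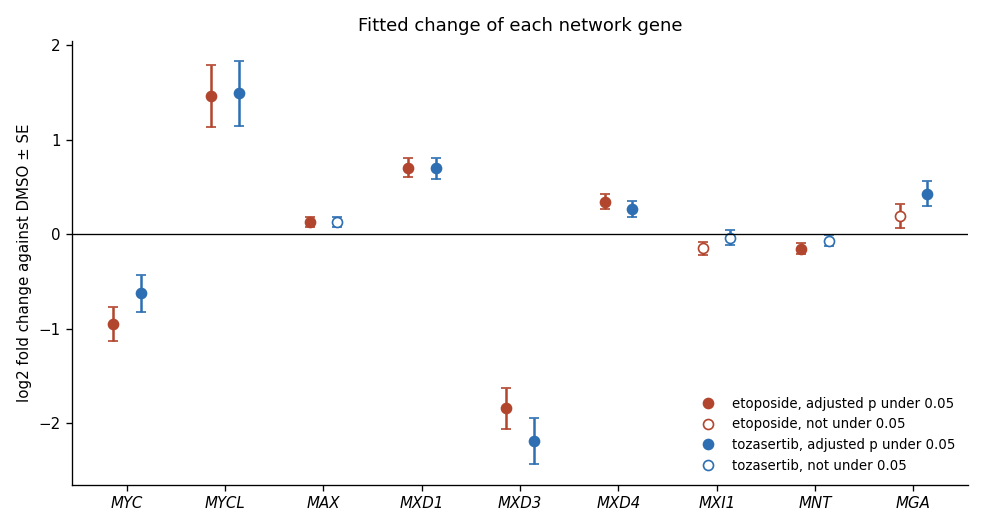
Log2 fold change of each tested network gene against DMSO, from edgeR, with bars for 1 SE. Filled points have an adjusted p under 0.05. MXD3 has the lowest values (-1.85 with etoposide, -2.19 with tozasertib), and MXI1 is the only gene with an open point for both drugs.

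MYC (chr8:127735434-127742951, GRCh38, GENCODE) is the main MYC protein gene of these cells and supplied 98.4% of the TPM of the 3 MYC proteins with etoposide, 98.9% with tozasertib and 99.7% in DMSO. It measured 37.6, 47.2, 41.5 and 38.4 CPM in the 4 etoposide samples, 47.2, 60.2 and 47.4 CPM in the 3 tozasertib samples, and 52.6, 110.1, 85.7 and 69.98 CPM in the 4 DMSO samples. All etoposide samples lay below all DMSO samples, while 1 tozasertib sample lay above the lowest DMSO sample, replicate 1. The DMSO samples themselves spread widely. In TPM the lowest of them, replicate 1 (29.9), was below 1 etoposide sample (34.8) and below all 3 tozasertib samples (35.1, 44.7 and 35.2). MYC was 1.93-fold lower with etoposide (log2 fold change -0.95, SE 0.18, adjusted p = 4.73e-04) and 1.55-fold lower with tozasertib (-0.63, SE 0.19, adjusted p = 0.0129). The etoposide change held in all 19 alternatives, and leaving out tozasertib replicate 1 gave -0.57 with adjusted p = 0.0534 for tozasertib. Leaving out DMSO replicate 2, the highest sample, still gave a log2 fold change of -0.76 with etoposide (adjusted p = 9.52e-04).

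PVT1, the noncoding RNA gene next to MYC on the same chromosome, did not follow it. It measured 25.4, 24.6, 19.7 and 21.3 CPM with etoposide, 28.0, 29.1 and 27.7 CPM with tozasertib, and 16.2, 14.2, 14.0 and 12.95 CPM in DMSO. Every drug-treated sample was above every DMSO sample. PVT1 was 1.59-fold higher with etoposide (adjusted p = 3.80e-05) and 1.97-fold higher with tozasertib (adjusted p = 1.94e-06). PVT1 was the only gene tested of a list of 7 that also held CASC11, CCAT1, CCAT2, MYCNOS, MYCNUT and MYCLP1.

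MYCL (chr1:39895428-39902256) and MYCN (chr2:15940550-15947007), the 2 paralogs of MYC that are best known from lung tumours and neuroblastoma, were close to absent. MYCN had 1 read in etoposide replicate 4 and in tozasertib replicates 1 and 4, and 0 in the other 8 samples. MYCL had 28, 31, 25 and 22 reads with etoposide, 42, 28 and 27 reads with tozasertib, and 7, 4, 14 and 9 reads in DMSO. No DMSO sample reached the lowest drug-treated sample. The rise was 2.75-fold with etoposide (adjusted p = 0.0018) and 2.81-fold with tozasertib (adjusted p = 0.00216), yet the level stayed at or below 1.00 CPM. The DMSO reads lay on the transcripts MYCL-203 and MYCL-201 and those of 6 of the 7 drug-treated samples partly on MYCL-202. MYCL-203 is listed under an identifier version that the annotation does not hold, and without such transcripts the log2 fold change was 2.94 with etoposide (adjusted p = 0.00605), against 1.46 with them, and 1.93 with tozasertib (adjusted p = 0.0733).

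MAX (chr14:65006174-65102695), the obligate partner of both arms, moved little. It measured 75.8, 73.2, 79.0 and 79.7 CPM with etoposide, 76.0, 76.8 and 78.2 CPM with tozasertib, and 74.5, 68.2, 70.4 and 68.7 CPM in DMSO. DMSO replicate 1 overlapped the etoposide samples. The fold change was 1.09 with either drug (etoposide adjusted p = 0.0471, tozasertib adjusted p = 0.0605). The etoposide call was lost in 8 of 19 alternatives, among them the unfiltered table (adjusted p = 0.271), and the tozasertib value passed the threshold in 6 of 18, among them length-scaled counts (log2 fold change 0.31, adjusted p = 0.0126). The gap was wider in TPM (above). The share of an intron-retaining transcript, MAX-209, was 32.1% to 38.6% of MAX TPM with etoposide and 38% to 40.7% with tozasertib, and ranged from 12.3% to 39.2% among DMSO samples, and its part in the TPM values was not tested.

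MXD3 (chr5:177301461-177312757), an MXD protein whose mouse counterpart is known for its expression in cycling progenitors during S phase, fell the most of the network genes. It measured 11.3, 7.57, 6.05 and 5.61 CPM with etoposide, 6.28, 6.29 and 5.50 CPM with tozasertib, and 35.2, 32.2, 22.4 and 20.7 CPM in DMSO. All 7 drug-treated samples were below all DMSO samples. MXD3 was 3.60-fold lower with etoposide (log2 fold change -1.85, SE 0.22, adjusted p = 7.74e-06) and 4.58-fold lower with tozasertib (-2.19, SE 0.24, adjusted p = 5.21e-06), and both calls held in every alternative run. MKI67, the marker of dividing cells given above, moved the same way, and its part in this result was not tested.

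MXD1 (chr2:69897688-69942945), the MXD protein best known from terminal differentiation of blood and skin cells, went the other way. It measured 25.0, 23.0, 23.1 and 24.4 CPM with etoposide, 24.6, 24.6 and 21.9 CPM with tozasertib, and 11.3, 15.4, 15.1 and 16.8 CPM in DMSO. Drug-treated and DMSO samples did not overlap. MXD1 was 1.63-fold higher with etoposide (log2 fold change 0.70, SE 0.10, adjusted p = 5.78e-05) and 1.62-fold higher with tozasertib (0.69, SE 0.11, adjusted p = 1.17e-04). Both calls held in every alternative run, without DMSO replicate 1 as well (0.59, adjusted p = 5.53e-06, for etoposide).

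MXD4 (chr4:2247432-2262109), the most abundant antagonist per length and 1 of the 2 with an E-box in the printed windows, also rose. It measured 148.6, 152.2, 148.9 and 145.7 CPM with etoposide, 136.0, 143.3 and 144.5 CPM with tozasertib, and 138.7, 118.9, 109.7 and 102.1 CPM in DMSO. Only DMSO replicate 1 came near the drug-treated samples, and it lay above 1 tozasertib sample. The rise was 1.27-fold with etoposide (log2 fold change 0.34, SE 0.08, adjusted p = 0.00211) and 1.20-fold with tozasertib (0.27, SE 0.08, adjusted p = 0.0149). The tozasertib call was lost without tozasertib replicate 4 (adjusted p = 0.0562) or DMSO replicate 3 (adjusted p = 0.0517).

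MXI1, MNT and MGA passed the threshold with at most 1 of the drugs. MXI1 (chr10:110207605-110287365), a close relative of the MXD proteins, measured 43.1, 48.8, 44.5 and 48.2 CPM with etoposide, 49.4, 48.9 and 51.3 CPM with tozasertib, and 45.3, 55.7, 54.8 and 49.2 CPM in DMSO, with overlapping groups (etoposide log2 fold change -0.15, adjusted p = 0.0868, and tozasertib -0.04, adjusted p = 0.693). DMSO replicate 1 decided the etoposide value, which without it was -0.21 with adjusted p = 0.00888. MNT (chr17:2384073-2401104), the broadly expressed antagonist that is thought to set a basal brake on MYC, measured 54.6, 48.9, 48.7 and 51.5 CPM with etoposide, 55.5, 52.5 and 54.1 CPM with tozasertib, and 55.2, 56.1, 58.1 and 57.4 CPM in DMSO. All etoposide samples were below all DMSO samples, by a narrow margin. MNT was 1.11-fold lower with etoposide (adjusted p = 0.0255), a call lost in 10 of 19 alternatives, and had a log2 fold change of -0.07 with tozasertib (adjusted p = 0.322).

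MGA (chr15:41621134-41773081), the large MAX partner of the PRC1.6 complex, measured 20.8, 20.95, 21.5 and 20.2 CPM with etoposide, 25.8, 24.9 and 23.2 CPM with tozasertib, and 13.2, 18.0, 18.97 and 23.2 CPM in DMSO. Tozasertib samples reached from the top of the DMSO range upwards. The fold change was 1.34 with tozasertib (log2 0.43, SE 0.13, adjusted p = 0.0145) and 1.14 with etoposide (log2 0.19, adjusted p = 0.22). On length-scaled counts the tozasertib value was 0.24 with adjusted p = 0.074, and without tozasertib replicate 1 it was 0.39 with adjusted p = 0.0579. The etoposide value was 0.32 without DMSO replicate 4 (adjusted p = 0.0228) and 0.06 without DMSO replicate 1 (adjusted p = 0.582).

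No network gene differed between the drugs at an adjusted p under 0.05, where 5.67% of all tested genes were higher with tozasertib than with etoposide and 5.45% lower. The count was 0 of 9 with edgeR and 0 with DESeq2, also at an unadjusted p under 0.05. MGA had the lowest p, with 24.7 ± 1.33 CPM with tozasertib against 20.9 ± 0.55 CPM with etoposide (log2 fold change 0.24, SE 0.13, adjusted p = 0.301). MYC measured 51.6 ± 7.42 CPM with tozasertib against 41.2 ± 4.34 CPM with etoposide (log2 fold change 0.32, SE 0.19, adjusted p = 0.335). In a fit of these 7 samples alone, both passed the threshold (MYC adjusted p = 0.0396, MGA adjusted p = 0.0118). That fit also called more genes over all tested ones, with the counts given below, and the reason was not tested.

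Added up, the antagonists were about as abundant in all conditions, and their make-up differed. They summed to 146.9 ± 7.75 TPM with etoposide (n = 4), 157.4 ± 1.04 TPM with tozasertib (n = 3) and 147.7 ± 12.5 TPM in DMSO (n = 4). MXD3 held 8.43% ± 2.97 of this sum with etoposide and 6.86% ± 0.53 with tozasertib, against 27.4% ± 4.53 in DMSO. MXD4 held 44.5% ± 1.96 and 43.2% ± 1.22, against 30.2% ± 2.17, and MXD1 held 5.67% ± 0.31 and 5.46% ± 0.43, against 3.17% ± 0.97. MXI1 (24.9%, 26.4%, and 23.9% in DMSO), MNT (12.9%, 14.4%, and 12.5% in DMSO) and MGA (3.65%, 3.66%, and 2.81% in DMSO) kept nearer to their DMSO shares. The MYC proteins summed to 29.3 ± 4.12 TPM with etoposide, 38.8 ± 5.58 TPM with tozasertib and 51.3 ± 17.3 TPM in DMSO. There were thus 5.09 ± 0.73 antagonist TPM per MYC TPM with etoposide, 4.11 ± 0.54 with tozasertib and 3.12 ± 1.00 in DMSO. The ratio of DMSO replicate 1, 4.55, lay within the etoposide range (4.11 to 5.77) and above the tozasertib range (3.49 to 4.45), and the other 3 DMSO samples (2.31 to 2.99) were below every drug-treated sample. No test was run on these sums.

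**Figure D3:**
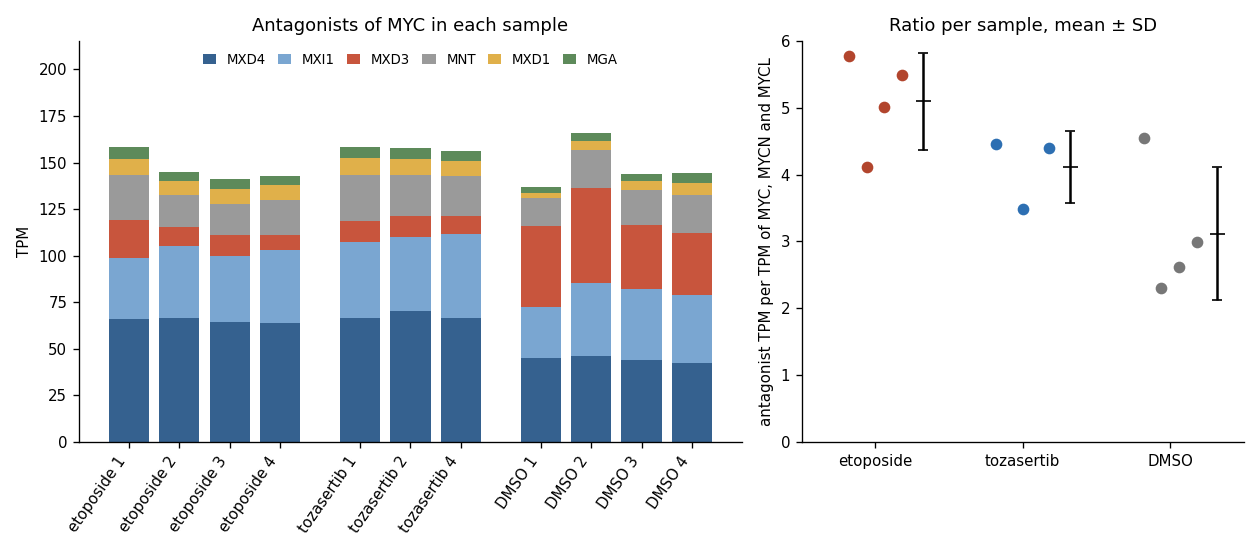
Left, TPM of the 6 antagonists stacked for each sample. Right, their sum divided by the summed TPM of MYC, MYCN and MYCL, with points for samples and black bars for the mean ± SD. The MXD3 segment shrinks to a mean share of 8.43% with etoposide and 6.86% with tozasertib, against 27.4% in DMSO, and DMSO replicate 1 has a ratio of 4.55.

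Transcript shares within the network genes were tested with an exact two-sided permutation test over samples for the 25 transcripts with at least 10% of their gene's TPM in a condition. None passed an adjusted p under 0.05 in this exact test (lowest adjusted p = 0.238 for either drug), which for 3 tozasertib samples against 4 cannot go below p = 0.057. At the smallest p that 4 against 4 allow, 0.029, the transcript MYC-213 held 12.7% to 17.3% of MYC TPM with etoposide against 5.84% to 11.4% in DMSO, MXD4-201 held 78.4% to 79.3% of MXD4 TPM against 81.1% to 87.4%, and MGA-205 held 15.2% ± 2.60 of MGA TPM against 5.97% ± 5.03. The MXI1 transcripts MXI1-229, MXI1-215 and MXI1-235 were at 0 in some replicates and above 20% in others of the same condition, so their assignment was not stable. The same held for MXD3-208 with etoposide (0 to 49.9%) and for MGA-214 with etoposide (0 to 27.3%) and in DMSO (0 to 32.2%), and MGA-205 was at 0 in tozasertib replicate 1 and DMSO replicate 2.

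The antagonists act through corepressors, and many of those genes fell with both drugs. Of 16 genes of the SIN3 complex and its partners, 1 rose and 11 fell with etoposide, and 1 rose and 10 fell with tozasertib, with median log2 fold changes of -0.39 and -0.37. Of all tested genes, 27.7% rose and 30.7% fell with etoposide and 29.9% rose and 29.4% fell with tozasertib. SAP30, a SIN3 subunit, measured 5.75 to 6.73 CPM with etoposide, 4.48 to 5.88 CPM with tozasertib and 15.3 to 21.3 CPM in DMSO, and was 2.93-fold and 3.39-fold lower. RBBP7, a histone chaperone of the complex, fell by 0.93 on the log2 scale with etoposide and by 1.02 with tozasertib, and the deacetylase gene HDAC2 was 1.63-fold and 1.67-fold lower. ING2, which reads methylated histone H3, fell by 1.33 and 1.64 on the log2 scale. The scaffold gene SIN3A fell by 0.61 and 0.59, and SIN3B did not pass (-0.02 with etoposide, adjusted p = 0.747, and -0.14 with tozasertib, adjusted p = 0.0715). ARID4A was the 1 gene that rose (0.31 and 0.34).

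Among 13 genes of the MGA complex PRC1.6, 2 rose and 10 fell with etoposide, and 1 rose and 10 fell with tozasertib. Their medians were -0.45 and -0.41. Beside them, 27.7% of all tested genes rose and 30.7% fell with etoposide, and 29.9% rose and 29.4% fell with tozasertib. TFDP1, the DP partner of E2F factors, was 1.47-fold lower with etoposide and 1.63-fold lower with tozasertib. CBX3, the heterochromatin protein HP1 gamma, fell by 0.59 and 0.60 on the log2 scale. E2F6, which anchors the complex at promoters, fell by 0.46 and 0.24. L3MBTL2 rose with both drugs (0.30 and 0.22) and TFDP2 with etoposide (0.29). HDAC1 and HDAC2 belong to both this list and the SIN3 list.

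Among 18 cofactor genes of MYC, 1 rose and 7 fell with etoposide, and 3 rose and 7 fell with tozasertib. Beside them, 27.7% of all tested genes rose and 30.7% fell with etoposide, and 29.9% rose and 29.4% fell with tozasertib. The falls were not far from these shares and the rises were below them. KAT2A, the GCN5 acetyltransferase, measured 135.8, 106.4, 102.2 and 103.5 CPM with etoposide, 138.1, 131.5 and 119.4 CPM with tozasertib, and 69.4, 71.7, 69.0 and 61.9 CPM in DMSO, a rise of 1.65-fold and 1.91-fold. CCNT1 and CCNT2, cyclins of the elongation kinase P-TEFb, rose with tozasertib (0.26 and 0.46). ACTL6A and SMARCB1, chromatin remodelling subunits, fell by 0.84 and 0.78 on the log2 scale with etoposide and by 0.80 and 0.86 with tozasertib. KAT5 fell by 0.67 and 0.48, and WDR5, a platform for MYC on chromatin, by 0.32 and 0.44. TRRAP, the scaffold of MYC-bound acetyltransferases, did not pass (adjusted p = 0.164 and 0.300).

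Of 24 genes that set the life span of the MYC protein, 3 rose and 12 fell with each drug, where 27.7% of all tested genes rose and 30.7% fell with etoposide and 29.9% rose and 29.4% fell with tozasertib. PLK1 and AURKA, mitotic kinases that are known to stabilize MYC family proteins, fell the most. AURKA, which encodes a target of tozasertib, measured 26.0, 27.2, 22.7 and 19.5 CPM with etoposide, 16.8, 16.4 and 13.3 CPM with tozasertib, and 78.4, 74.4, 70.7 and 66.6 CPM in DMSO. It was 3.04-fold and 4.67-fold lower, and PLK1 was 4.79-fold and 8.85-fold lower. CIP2A, an inhibitor of the phosphatase that marks MYC for decay, was 2.68-fold and 3.14-fold lower, and the kinase gene PIM3 fell by 1.21 and 0.86 on the log2 scale. FBXW7, the ubiquitin ligase subunit that degrades MYC, did not pass (0.16, adjusted p = 0.222, and 0.28, adjusted p = 0.0521). BTRC, TRIM32 and USP36 rose with both drugs, by 0.44 to 0.64 with etoposide and 0.45 to 0.53 with tozasertib. Tozasertib samples were lower than etoposide samples for PLK1 (-0.88), AURKA (-0.62) and SKP2 (-0.40), and higher for PIM3 (0.36).

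Genes that MYC is known to activate mostly fell or did not pass. Of 48 tested of 49, 4 rose and 27 fell with etoposide, and 4 rose and 26 fell with tozasertib. Their median log2 fold changes were -0.24 and -0.25. Beside them, 27.7% of all tested genes rose and 30.7% fell with etoposide, and 29.9% rose and 29.4% fell with tozasertib. LDHA, the lactate dehydrogenase gene with 1 of its promoter E-boxes printed above, measured 298.6, 329.2, 314.4 and 300.2 CPM with etoposide, 247.6, 244.1 and 245.1 CPM with tozasertib, and 1517, 1379, 1324 and 1207 CPM in DMSO. The groups were far apart, at 4.37-fold and 5.52-fold lower. FBL, the methyltransferase of ribosomal RNA, was 4.10-fold and 4.71-fold lower, NPM1, a nucleolar chaperone, 1.78-fold and 1.88-fold lower, and MCM4, a subunit of the replicative helicase, 2.84-fold and 4.27-fold lower. The ribosome biogenesis genes RRP12, MYBBP1A, WDR43 and POLR1B were the 4 that rose with both drugs, by 0.40 to 0.61 with etoposide and 0.42 to 0.60 with tozasertib. MCM4 (-0.59), LDHA (-0.34) and CDC25A (-0.75) were lower with tozasertib than with etoposide. MCM4 and CDC25A are also genes of the cell cycle, and the part of the arrest in these values was not tested.

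These target genes were also counted by whether their promoter window held the motif. A promoter was matched for 40 of them, and 24 held CACGTG, or 60.0% of these genes beside 8.77% of all 27305 genes of the promoter table. The list was picked as known MYC targets, so this share describes the list and is not a result of these samples. HSPD1 and HSPE1 were both counted for the same site, since their windows overlap on opposite strands. Of these 24, 2 rose and 12 fell with etoposide (median log2 fold change -0.21), and of the 16 without it 1 rose and 10 fell (median -0.27). With tozasertib 2 rose and 13 fell of the 24 (median -0.25), and 1 rose and 8 fell of the 16 (median -0.24). Over all tested genes, 27.7% rose and 30.7% fell with etoposide, and 29.9% rose and 29.4% fell with tozasertib. HSPD1, EIF4E and PRDX3, whose windows are printed above, fell by 0.44, 0.22 and 0.35 with etoposide and by 0.57, 0.28 and 0.40 with tozasertib. The difference between the 2 sets was not tested.

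Genes that MYC is known to repress went both ways. Of 9 tested of 10, 3 rose and 3 fell with etoposide, where 27.7% and 30.7% of all tested genes did, and 4 rose and 3 fell with tozasertib, where 29.9% and 29.4% did. CDKN1A, CDKN1B and GADD45A, which restrain the cell cycle, rose with both drugs, GADD45A by 0.53 and 1.00, and GAS1 rose with tozasertib (0.68) but not with etoposide (0.06, adjusted p = 0.522). NDRG1, a stress-responsive gene, measured 61.0 to 64.8 CPM with etoposide, 61.8 to 67.4 CPM with tozasertib and 252 to 371 CPM in DMSO, at 5.09-fold and 4.97-fold lower. ITGA6, a laminin receptor subunit, and PDGFRB also fell (-1.43 and -1.39 with etoposide, -0.68 and -1.06 with tozasertib). GAS1, GADD45A and ITGA6 were higher with tozasertib than with etoposide (0.62, 0.47 and 0.75 on the log2 scale).

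**Figure D4:**
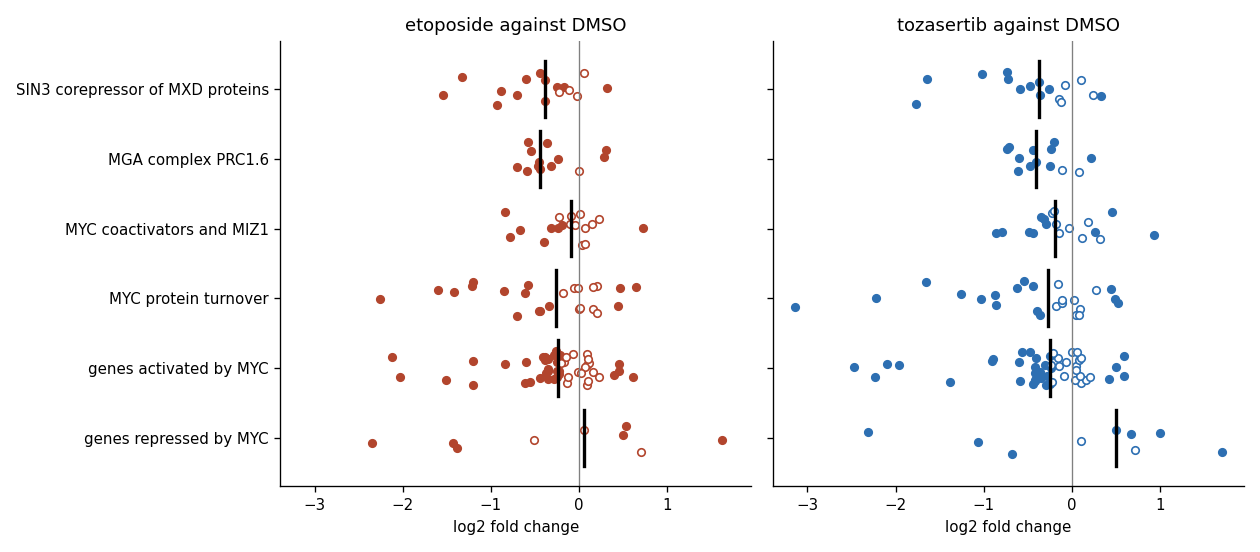
Log2 fold change of each gene of 6 lists with etoposide (left) and tozasertib (right) against DMSO, from edgeR. Filled points have an adjusted p under 0.05 and black lines mark list medians, which for genes activated by MYC are -0.24 and -0.25 and for the SIN3 list -0.39 and -0.37.

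A parallel branch of the network pairs MLX, a relative of MAX, with the glucose sensor MondoA (MLXIP). MLX fell by 0.39 with etoposide and 0.33 with tozasertib on the log2 scale, and MLXIP rose by 0.31 and 0.18. TXNIP and ARRDC4, the arrestin genes that MondoA is best known to activate, both rose. TXNIP measured 174.7, 165.3, 130.0 and 125.8 CPM with etoposide, 185.8, 178.8 and 137.6 CPM with tozasertib, and 59.9, 60.6, 49.2 and 43.0 CPM in DMSO, with no overlap (2.80-fold and 3.15-fold higher, adjusted p = 1.04e-06 and 6.88e-07). ARRDC4 was 3.46-fold and 3.10-fold higher.

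The protein-coding genes whose levels over the 11 samples ran most like those of 4 network genes were also listed, by Pearson r of log2 CPM, which reflects the shared conditions and libraries. For MYC they were PPP1R3B (0.95), HECTD2 (0.94) and XDH (0.94), and PPP1R3B averaged 24.1 CPM with etoposide, 29.6 CPM with tozasertib and 46.5 CPM in DMSO. For MXD3 they were ARHGEF1 (0.99), SS18 (0.99) and CHTF18 (0.99), a subunit of an alternative loader of the replication clamp. For MXD4 they were TXNRD2 (0.99), PDCD6 (0.98) and SDF2 (0.98), and for MAX they were HKDC1 (0.97), PEPD (0.96) and SYS1 (0.96). HKDC1 had few reads, with averages of 0.57 CPM with etoposide, 0.54 CPM with tozasertib and 0.08 CPM in DMSO.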

How the data were processed

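Poly(A)-selected RNA was sequenced by the authors from strand-specific libraries. Tools listed in the submitters' processing notes are Salmon 1.9.0, cutadapt 4.7, DESeq2 1.40.2 and R 4.4.2, with GRCh38 as the build. The deposited tables are Salmon outputs with estimated counts of reads, TPM and effective length for each of 251645 transcripts. The deposited estimated counts are not normalized, and the authors' TPM values are scaled by effective length and library total. A different aligner is named in the study's methods. For Salmon, options and transcript release were not given in the sources used here.

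For genes, transcripts were matched to GENCODE release 44 (99.8% matched, 470 of them without regard to the version of the identifier), and the 437 unmatched ones, at most 0.163% of reads, were left out. Estimated counts were summed per gene and rounded. Genes passing filterByExpr were tested in edgeR 4.0.16 (R 4.3.3) by the two-sided quasi-likelihood test, with TMM scaling, 1 mean per group over all 11 samples and Benjamini-Hochberg adjustment over 17039 genes, and called at an adjusted p under 0.05. CPM are TMM-scaled. On simulated counts the fit was checked to recover the changes put in. No replicates agreed within sampling noise, so each counted once.

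The network members and gene lists were chosen with earlier results of these data known. The rule for named genes took all 10 members, and of each list up to 4 genes with the lowest adjusted p for each drug plus genes called in 1 direction where 5 or fewer were. HSPD1, EIF4E, PRDX3 and other list genes outside the rule were chosen after their values were seen. Alternatives covered scaling, filter, tool, length-scaled counts, a replicate block, the samples fitted and leaving out each replicate. Matching by versioned identifiers only and leaving out DMSO replicates 1 and 4 were chosen after seeing the data.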

Additional observations from a re-analysis of the deposited data

How the results depend on the processing

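The changes of MYC, MYCL, MXD1, MXD3 and MXD4 with etoposide, and of MXD1 and MXD3 with tozasertib, kept their direction and their side of the threshold in every alternative run, with MYCL not passing the filter at 1 CPM in 3 samples. The number of network genes called was 5 to 8 with etoposide and 4 to 7 with tozasertib when 1 replicate was left out (7 and 6 with all samples), and 9 and 7 without DMSO replicates 1 and 4, an alternative chosen after seeing the data. Over all genes, 9251 to 10299 were called with etoposide (9941 of 17039 with all samples) and 8808 to 10423 with tozasertib when 1 replicate was left out. Without DMSO replicates 1 and 4, 9977 genes were called with etoposide. Between the drugs the number of network genes called was 0 with every replicate left out in turn, 1 with no filter (MYC) and 2 in a fit of the 7 drug-treated samples alone (MYC and MGA). Of all genes, 1895 differed between the drugs (1036 to 2186 with 1 replicate left out, the lowest without tozasertib replicate 1), 1131 on length-scaled counts, 946 on length-scaled counts with the replicate block and 3552 in the fit of the 7 samples. DESeq2 called 1021 higher and 1488 lower there, against 966 and 929 with edgeR. In CPM, which are not per length, the antagonists summed to 7.16 per MYC unit with etoposide (6.26 to 7.93), 5.79 with tozasertib (4.92 to 6.24) and 3.86 in DMSO (2.69 to 5.66). With 1 replicate left out, the TPM ratio was 4.87 to 5.42 with etoposide, 3.94 to 4.42 with tozasertib and 2.64 to 3.39 in DMSO.

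Values near 0 that had not passed the threshold changed sign. With tozasertib, MXI1 (-0.04) was 0.05 with library size alone and 0.01 on length-scaled counts with the block, and MNT (-0.07) was 0.02, 0.05 on length-scaled counts and 0.01 with both. Between the drugs, MYCL (0.03) was -0.01 with DESeq2, -0.19 on length-scaled counts, -0.16 with the block as well, -1.01 with versioned identifiers and -0.12 to 0.16 with 1 replicate left out. MAX (0.00) was -0.03 with DESeq2 or its size factors, 0.00 with no filter and -0.02 to 0.02 with 1 replicate left out. MXD1 (-0.01) was 0.03 with library size alone, 0.00 in the fit of the 7 samples and -0.04 to 0.04 with 1 replicate left out. The causes were not tested.

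Replicate numbers are shared between conditions in the labels, but not every same-numbered pair deviated together. Correlations were 0.23, 0.091 and 0.12 between the drugs and -0.097 to 0.051 with DMSO, and not every sample correlated best with its own number, so the block is given as an alternative only. With the block, 6 network genes were called with each drug, MAX with etoposide being lost (adjusted p = 0.0599), and 9858 of all genes were called with etoposide. Leaving out a replicate was not run for transcript shares, since the exact test of 3 samples against 4 cannot go below p = 0.057. The shares of estimated counts in place of TPM gave 3 transcripts at the smallest p with etoposide, against 3 with TPM. MYCN and MYCL are limited by depth, with at most 1 and 42 reads in a sample.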
